A study of Mus musculus with 9 samples.

Results

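The circadian clock genes described here are 10 genes for the activators, repressors and outputs of the mammalian clock: Clock, Arntl (also called Bmal1), Per1, Per2, Cry1, Cry2, Nr1d1, Nr1d2, Bhlhe40 and Dbp. They were taken from the deposited table of gene counts by symbol, after removal of a trailing hyphen and 3 digits where a name carried them. All 10 were among the 20627 features of the table, and all 10 passed the filter on low counts that left 13311 genes for testing. The study sequenced polyadenylated RNA from RAW264.7, an established mouse macrophage-like line, in 9 libraries that the titles place in 3 groups of 3. HG cells were kept in 35 mmol/l glucose for 6 h. HG-SIG cells were kept for 6 h in 35 mmol/l glucose with sitagliptin phosphate, an inhibitor of dipeptidyl peptidase 4 used against type 2 diabetes. NC was treated as the control, and no glucose concentration or incubation time is stated for it.

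All 3 groups were the same line, for which no genetic change is named, and no group held an osmotic control or sitagliptin without high glucose. The sitagliptin dose, the hour of harvest and any synchronisation of the cells are not given in the sources used. Each group was sampled at a single time, so phase and amplitude of a rhythm were not measured. The labels do not say that the 3 libraries of a group came from separate cultures, so p-values measure the spread between these libraries, which may be technical.

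As background, CLOCK and ARNTL form a dimer that binds E-boxes and switches on the Per, Cry, Nr1d, Dbp and Bhlhe40 genes. PER and CRY proteins return to the nucleus and inhibit that dimer, while the nuclear receptors REV-ERBα (Nr1d1) and REV-ERBβ (Nr1d2) repress Arntl and compete with ROR receptors for the same DNA sites. DBP carries the rhythm to genes with D-boxes, and the same loop in macrophages is known for gating cytokine and chemokine genes by time of day.

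Promoter sequences are shown first, because E-boxes, D-boxes and REV-ERB sites are where the members are known to regulate each other. RefSeq windows on GRCm38.p6, from 250 bases before to 50 bases after a gene's start, were found for 8 of the 10 members in 12 windows, and none was matched for Per2 and Bhlhe40. They were searched on both strands for the E-box CACGTG, the D-box TTATGTAA, the nuclear receptor motif AGGTCA and the cyclic AMP response element TGACGTCA. None of these motifs contains another. AGGTCA is only part of a nuclear receptor site, and the bases beside it were not searched. A match to it therefore does not single out a REV-ERB or ROR site. The E-box was in 2 of the 12 windows, those of the members Per1 and Cry1, against 7.15% of all 32851 RefSeq windows. The motif AGGTCA was in 4 of the 12, those of Clock, Arntl, Per1 and Nr1d2, against 16.3% of all windows. No member window held the D-box (0.938% of all windows) or the cyclic AMP response element (1.79%). A match is a description of letters and no evidence of binding, and the absence of a match concerns only these windows.

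The 250 bases before the starts of Per1 (chr11:69098699-69098948, plus strand) and Cry1 (chr10:85185055-85185304, minus strand) are printed 5′ to 3′ with the E-box in capitals. The RefSeq starts of Per1 and Cry1 both lie inside the genes as annotated in GENCODE. That of Cry1 is close to the gene's upstream end, at 85185064. The Per1 gene begins at 69095217, upstream of all bases printed for it. In Per1 the E-box began 166 bases before the start, and AGGTCA on the opposite strand, also in capitals as TGACCT, began 137 bases before it. In Cry1 the E-box began 60 bases before the start.
Per1: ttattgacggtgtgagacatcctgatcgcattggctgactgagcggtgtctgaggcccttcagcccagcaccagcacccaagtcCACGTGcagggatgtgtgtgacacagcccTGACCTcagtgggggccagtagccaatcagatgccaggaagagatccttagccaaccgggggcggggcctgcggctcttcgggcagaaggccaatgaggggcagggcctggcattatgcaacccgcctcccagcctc
Cry1: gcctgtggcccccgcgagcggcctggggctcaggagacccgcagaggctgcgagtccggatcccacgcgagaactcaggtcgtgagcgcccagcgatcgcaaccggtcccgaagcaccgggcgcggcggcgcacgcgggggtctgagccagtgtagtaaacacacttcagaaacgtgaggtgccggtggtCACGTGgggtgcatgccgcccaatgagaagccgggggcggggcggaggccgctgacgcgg

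For Clock (chr5:76303604-76303633, minus strand), Arntl (chr7:113207530-113207559, plus strand) and Nr1d2 (chr14:18239166-18239195, minus strand) 30 bases around the AGGTCA motif are printed, again 5′ to 3′ and with the motif in capitals. It began 119 bases before the start in Clock, where it lies on the opposite strand and reads TGACCT, 77 bases before the start in Nr1d2 and 31 bases after it in Arntl. The RefSeq starts of Clock, Arntl and Nr1d2 also lie inside the genes as annotated in GENCODE, and so do the motifs printed for Clock and Arntl. For Clock the gene's upstream end is at 76304792, beyond all bases printed for it.
Clock: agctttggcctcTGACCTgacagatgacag
Arntl: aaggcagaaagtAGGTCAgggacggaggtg
Nr1d2: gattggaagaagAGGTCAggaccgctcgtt

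Library totals ranged from 23285821 to 31571578 counts, and 3 counts corresponded to 0.0895 to 0.132 CPM, counts per library scaled with the trimmed mean of M-values (TMM). All levels below are in this unit. Chi-square values per gene between replicates were 2.82 to 9.14, above sampling noise, and the highest, 8.31 and 9.14, were those of HG replicate 3 against the other HG libraries. The cell type was checked with 9 macrophage markers, which were all tested and summed to 11128 to 11588 CPM in NC, 10025 to 10792 in HG and 5225 to 5327 in HG-SIG. Markers of epithelial, T, B, fibroblast and endothelial cells had no tested gene and summed to at most 0.330 CPM in any library. In bulk RNA of a single line, lower levels in all cells and lower levels in only part of the cells cannot be told apart.

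High glucose was compared with the control first. Bhlhe40, Nr1d1 and Arntl fell in HG, while Dbp and Nr1d2 rose, and Clock, Per1, Per2, Cry1 and Cry2 were not called. The call was an adjusted p under 0.05 in edgeR's quasi-likelihood test with Benjamini-Hochberg adjustment over all 13311 genes, and an adjusted p without a named tool is from that test. Of the 10 members 5 were called, 2 higher and 3 lower, in a comparison that called 29.5% of all genes (14.3% higher and 15.2% lower). Libraries were without overlap between the groups for 6 members, against 41.7% of all genes. The median absolute log2 fold change was 0.22 for the members and 0.14 for all genes, and 0 members were called with a log2 change above 1 in size, which 2.85% of all genes were. Of the 9 macrophage markers 2 rose and 5 fell in the same comparison, and their part in these changes was not tested.

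The comparison the series names is sitagliptin under high glucose. In HG-SIG against HG, Dbp, Per2, Bhlhe40, Arntl, Nr1d1, Per1, Cry2 and Nr1d2 fell, Clock rose and Cry1 was not called. Thus 9 of 10 were called, 1 higher and 8 lower, where 52.5% of all genes were called, 25.7% higher and 26.8% lower. The libraries did not overlap for 9 members, against 58.7% of all genes. The median log2 fold change was -0.48 for the members and 0.01 for all genes, the median absolute one 0.48 against 0.22, and 0 members passed 1 in size, against 5.30% of all genes. All 9 macrophage markers fell in HG-SIG against HG, from a summed 10025 to 10792 CPM to 5225 to 5327 CPM, and their part in the changes of the clock genes was not tested.

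HG-SIG was also set against NC. Arntl, Per1, Per2, Cry1, Cry2, Nr1d1 and Bhlhe40 were lower and Clock and Nr1d2 higher, so 9 of 10 were called, against 58.6% of all genes (29.9% higher and 28.7% lower). Libraries did not overlap for 8 members, against 65.9% of all genes. Bhlhe40 was the 1 member called with a log2 change above 1 in size, a rule that 8.51% of all genes met. The median log2 fold change was -0.32 for the members and 0.02 for all genes. Of the macrophage markers 0 rose and 8 fell there. The 3 comparisons share libraries pairwise, so their values are given side by side and are not separate evidence.

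The split of all calls in the sitagliptin comparisons depended on the scaling. By library size alone, log2 fold changes of all genes moved up by a median of 0.16 in HG-SIG against HG, by 0.19 in HG-SIG against NC and by 0.03 between HG and NC. Of the calls, 76.9%, 76.2% and 58.9% were then higher, against 48.9%, 51.0% and 48.4% with TMM, in the same order of comparisons. Among the members 7 were then called in HG-SIG against HG, 1 higher and 6 lower, since Cry2 and Nr1d2 dropped out. With limma on log2(TPM + 1), where TPM is counts scaled by exon length and library total, 8 members were called in HG-SIG against HG, 2 higher and 6 lower. Clock (0.51), Arntl (-0.41), Per1 (-0.19), Per2 (-0.41) and Nr1d1 (-0.31) kept their calls with other sizes, and Dbp and Bhlhe40 kept theirs as well. The remaining call was Cry1, given below. Changes below are relative to the TMM scale, and each member whose direction turned under another scaling is named with its value.

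**Figure D1:**
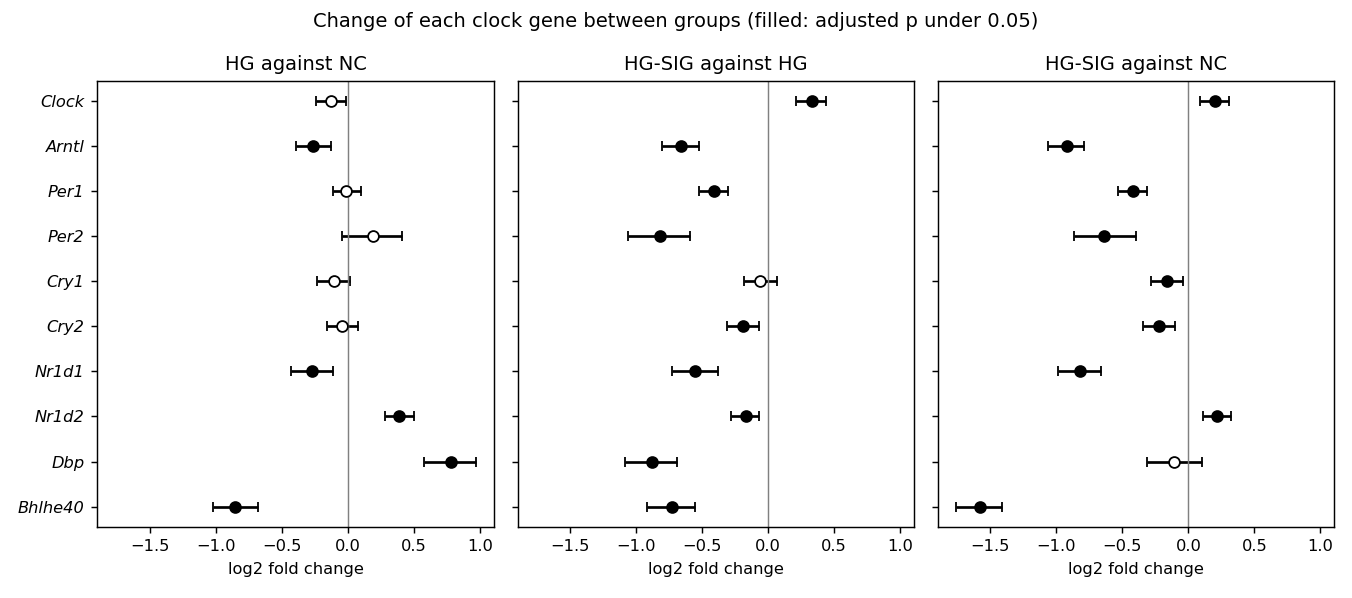
Log2 fold change of the 10 clock genes (rows) between HG and NC, HG-SIG and HG, and HG-SIG and NC (panels), with bars for 1.96 SE to each side and filled points for an adjusted p under 0.05 in edgeR. Bhlhe40 lies left of 0 in all 3 panels, and Dbp lies at 0.78 in the first, -0.88 in the second and -0.11 in the third.

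In HG-SIG against HG the activators moved in opposite directions. Clock (ENSMUSG00000029238, chromosome 5, 76209868 to 76304792 on mm10), whose protein is the histone acetyltransferase partner of the activating dimer, stood at 79.3, 75.2 and 80.5 CPM in NC, 64.1, 74.2 and 77.6 CPM in HG and 89.7, 90.6 and 90.0 CPM in HG-SIG. The HG-SIG libraries were above all others, and the lowest of all was HG replicate 1. Clock rose in HG-SIG against HG by 0.33 ± 0.06 on the log2 scale (SE, adjusted p = 4.7e-04) and was 0.20 ± 0.06 higher than in NC (adjusted p = 0.009), or 0.39 by library size alone. HG and NC libraries overlapped (-0.13 ± 0.06, adjusted p = 0.134), although without HG replicate 3 the difference was called (-0.19, adjusted p = 0.02).

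Arntl (ENSMUSG00000055116, chromosome 7, 113207465 to 113314126), which encodes the other subunit of the dimer, fell stepwise over the groups. It was at 28.4, 30.1 and 31.8 CPM in NC, 25.0, 26.0 and 24.3 CPM in HG and 17.4, 15.7 and 14.6 CPM in HG-SIG. No library of a group overlapped another group. The log2 fold change was -0.26 ± 0.07 in HG against NC (adjusted p = 0.00942), -0.66 ± 0.07 in HG-SIG against HG (adjusted p = 6.5e-06) and -0.92 ± 0.07 in HG-SIG against NC (adjusted p = 1.5e-07). Within a library, the level per kb of exon of Clock over that of Arntl was 1.43 ± 0.0887 for NC, 1.57 ± 0.171 for HG and 3.12 ± 0.273 for HG-SIG (SD, n = 3). The HG-SIG ratios, from 2.83 to 3.37, lay above the highest ratio of the other groups, 1.75.

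The Period genes Per1 and Per2 were lower with sitagliptin. Per1 (ENSMUSG00000020893, chromosome 11, 69095217 to 69109960), an early responder among the clock repressors, was at 25.6, 28.2 and 26.0 CPM in NC and 25.1, 26.8 and 27.4 CPM in HG. These libraries interleaved, and the difference of -0.01 ± 0.05 had an interval, 1.96 SE to each side, from -0.11 to 0.10 (adjusted p = 0.95), with 0.02 by library size alone. In HG-SIG Per1 was at 19.8, 20.0 and 19.8 CPM, below every other library. Its log2 fold change was -0.41 ± 0.06 against HG (adjusted p = 5.5e-05) and -0.42 ± 0.06 against NC (adjusted p = 3.1e-05). These were -0.25 and -0.23 by library size alone, still called.

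Per2 (ENSMUSG00000055866, chromosome 1, 91415982 to 91459324), the other PER repressor, had the lowest level per kb of exon among the members. Its values were 3.92, 3.59 and 3.61 CPM in NC, 4.11, 3.92 and 4.66 CPM in HG and 2.24, 2.44 and 2.48 CPM in HG-SIG. Each HG library was at or above the NC libraries, but the difference of 0.19 ± 0.12 was not called (adjusted p = 0.259). All HG-SIG libraries lay below both other groups, with a log2 fold change of -0.82 ± 0.12 against HG (adjusted p = 9.9e-05) and -0.64 ± 0.12 against NC (adjusted p = 5.7e-04).

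The Cryptochrome genes, whose proteins are the main inhibitors of the activating dimer, differed little between groups. Cry1 (ENSMUSG00000020038, chromosome 10, 85131700 to 85185064) was at 23.4, 21.8 and 23.3 CPM in NC, 21.4, 21.8 and 20.7 CPM in HG and 19.8, 22.3 and 19.3 CPM in HG-SIG. The groups overlapped in every comparison. Log2 fold changes were -0.10 ± 0.06 in HG against NC (adjusted p = 0.261) and -0.06 ± 0.06 in HG-SIG against HG (interval -0.18 to 0.07, adjusted p = 0.487). The direction of the second turned by library size alone (0.11, adjusted p = 0.166) and with limma on log2(TPM + 1), where it was called (0.14, adjusted p = 0.0414). Cry1 passed against NC only narrowly (-0.16 ± 0.06, adjusted p = 0.0454), and the value was 0.03 by library size alone (adjusted p = 0.676) and 0.07 with limma (adjusted p = 0.23).

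Cry2 (ENSMUSG00000068742, chromosome 2, 92403646 to 92434043) was at 17.0, 17.4 and 16.7 CPM in NC, 15.9, 16.1 and 17.9 CPM in HG and 14.7, 14.3 and 14.8 CPM in HG-SIG. NC and HG overlapped (-0.04 ± 0.06, adjusted p = 0.711), and HG-SIG lay below both. It was called lower against HG (-0.19 ± 0.06, adjusted p = 0.0219) and against NC (-0.22 ± 0.06, adjusted p = 0.00708). By library size alone both values were -0.03 (adjusted p = 0.75 and 0.675), and with limma on log2(TPM + 1) they turned to 0.02 and 0.01. Cry2 overlaps D930015M05Rik on the opposite strand over 4.67% of its exon length, a gene with 28 counts in all 9 libraries. Without HG replicate 3 the first was -0.13 (adjusted p = 0.0959), and without HG-SIG replicate 2 it was -0.17 (adjusted p = 0.0661). DESeq2 did not call it either (-0.19, adjusted p = 0.0575).

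The REV-ERB genes went in opposite directions under high glucose. Nr1d1 (ENSMUSG00000020889, chromosome 11, 98767932 to 98775333) was at 11.3, 11.5 and 11.7 CPM in NC, 9.40, 10.6 and 8.62 CPM in HG and 6.06, 6.62 and 6.83 CPM in HG-SIG. The 3 groups did not overlap. It fell by 0.27 ± 0.08 in HG against NC (adjusted p = 0.0275), by 0.55 ± 0.09 in HG-SIG against HG (adjusted p = 1.9e-04) and by 0.82 ± 0.08 in HG-SIG against NC (adjusted p = 3.3e-06). The first of these was not called with DESeq2 (adjusted p = 0.0641), nor in edgeR without NC replicate 1 (0.0586), NC replicate 2 (0.0567), NC replicate 3 (0.0829), HG replicate 1 (0.0783) or HG replicate 3 (0.0807). Nr1d1 overlaps Thra on the opposite strand over 263 bases, 8.55% of its exon length, and the sources do not say whether counting used the strand. Thra itself was not called in HG against NC (0.10, adjusted p = 0.383) or in HG-SIG against HG (-0.12, adjusted p = 0.213).

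Nr1d2 (ENSMUSG00000021775, chromosome 14, 18204054 to 18239127) was at 46.4, 45.3 and 52.4 CPM in NC, 61.8, 64.8 and 62.5 CPM in HG and 53.7, 56.5 and 57.4 CPM in HG-SIG. HG was highest, HG-SIG intermediate and NC lowest, without overlap. Nr1d2 rose by 0.39 ± 0.05 in HG against NC (adjusted p = 1.3e-04) and was 0.22 ± 0.05 higher in HG-SIG than in NC (adjusted p = 0.00391), or 0.41 by library size alone. Its fall in HG-SIG against HG (-0.17 ± 0.05, adjusted p = 0.0143) shrank to -0.01 by library size alone (adjusted p = 0.84), turned to 0.03 with limma on log2(TPM + 1) (adjusted p = 0.678), and was not called without HG replicate 2 (-0.15, adjusted p = 0.0548) or HG-SIG replicate 1 (-0.15, adjusted p = 0.0657). Per kb of exon, Nr1d2 over Nr1d1 within a library was 2.37 ± 0.151 for NC, 3.78 ± 0.324 for HG and 4.89 ± 0.133 for HG-SIG (SD, n = 3).

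Bhlhe40 (ENSMUSG00000030103, chromosome 6, 108660629 to 108666925) encodes DEC1, a repressor that competes for E-boxes and also responds to hypoxia and cytokine signals. It was at 72.6, 64.0 and 72.2 CPM in NC, 41.3, 34.5 and 40.1 CPM in HG and 26.9, 20.4 and 22.4 CPM in HG-SIG. The groups were separate and in that order. Its log2 fold change of -0.85 ± 0.09 in HG against NC (adjusted p = 1.2e-05) was the largest in size among the members. In HG-SIG against HG it was -0.73 ± 0.10 (adjusted p = 4.0e-05), and in HG-SIG against NC -1.58 ± 0.09 (adjusted p = 1.3e-08), which left 0.334 of the NC level.

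Dbp (ENSMUSG00000059824, chromosome 7, 45705088 to 45710203), the D-box activator and output of the loop, was highest in HG. It was at 4.12, 4.13 and 4.38 CPM in NC, 6.79, 7.61 and 7.26 CPM in HG and 4.36, 3.76 and 3.61 CPM in HG-SIG. The HG libraries lay above all others, whereas NC and HG-SIG overlapped. Dbp rose by 0.78 ± 0.10 in HG against NC (adjusted p = 7.4e-05) and fell by 0.88 ± 0.10 in HG-SIG against HG (adjusted p = 1.1e-05), both measured against the same HG libraries. HG-SIG differed from NC by -0.11 ± 0.10 (interval -0.31 to 0.10, adjusted p = 0.395), and by 0.08 by library size alone. Dbp overlaps Sphk2 on the opposite strand over 539 bases, 18% of its exon length, and Sphk2 stood at 38.4 CPM in NC, 35.3 CPM in HG and 35.2 CPM in HG-SIG, with no call in any comparison.

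**Figure D2:**
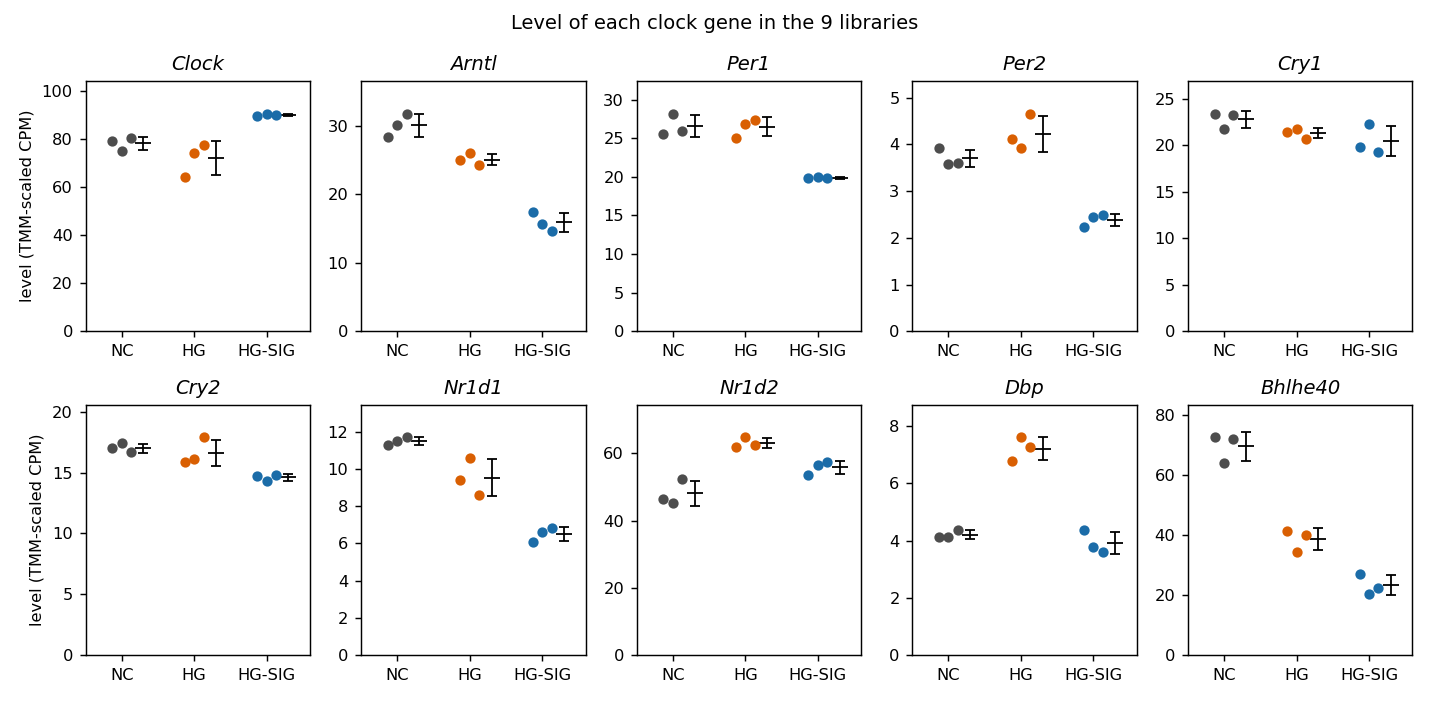
TMM-scaled CPM of each of the 10 clock genes (panels, each with its own axis from 0) in the 3 libraries of NC, HG and HG-SIG, with the mean and SD of each group beside the points. Arntl, Nr1d1 and Bhlhe40 step down from NC to HG to HG-SIG, Dbp is above 6 CPM in the HG libraries and below 5 CPM in the others, and only in Clock do the HG-SIG libraries lie highest.

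Levels of different genes were compared as CPM per kb of exon, where the length is that of the merged exons of all GENCODE transcripts of a gene. The transcripts present may be shorter, so the order of genes and the size of ratios between genes depend on this length. In NC the order was Bhlhe40 (14.8 ± 1.03), Nr1d2, Cry1, Clock, Per1, Arntl, Nr1d1, Cry2, Dbp and Per2 (0.633 ± 0.0311), and among neighbours only Arntl and Nr1d1 overlapped. In HG, Nr1d2 (11.7 ± 0.290) stood above Bhlhe40 (8.21 ± 0.763), and Dbp at 2.41 ± 0.138 overlapped its neighbour Cry2 (2.63 ± 0.169). Clock and Per1, Arntl and Nr1d1, and Nr1d1 and Cry2 overlapped as neighbours there too. In HG-SIG, Bhlhe40 (4.94 ± 0.703) was the fourth, below Nr1d2 (10.3 ± 0.359), Clock (6.56 ± 0.0328) and Cry1 (6.13 ± 0.482), of which Clock and Cry1 overlapped. Arntl and Nr1d1 were both at 2.11 there, overlapped each other, and Arntl overlapped Cry2 (2.31 ± 0.0407). Per2 was lowest throughout, at 0.723 ± 0.0656 in HG and 0.407 ± 0.0217 in HG-SIG (all values mean ± SD, n = 3).

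**Figure D3:**
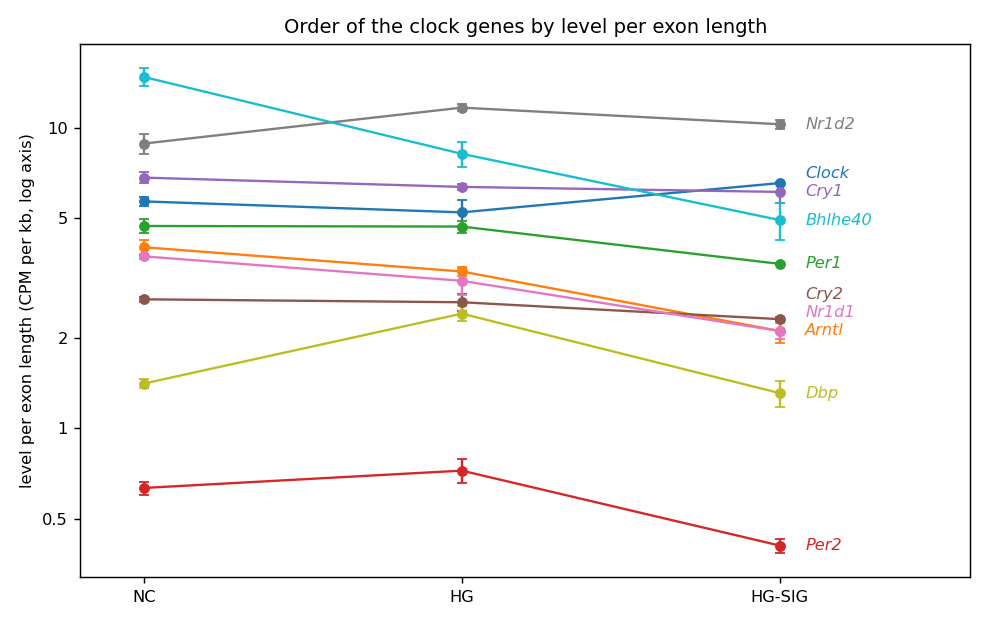
Mean level per kb of exon (CPM per kb, log axis) of the 10 clock genes in NC, HG and HG-SIG, with bars for the SD of 3 libraries. Bhlhe40 goes from 14.8 to 8.21 to 4.94 and is passed by Nr1d2, Clock and Cry1, while Per2 stays lowest.

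The ratio of Bhlhe40 to Dbp, a repressor and an output of the same dimer, was 10.5 ± 0.683 for NC, 3.42 ± 0.496 for HG and 3.78 ± 0.279 for HG-SIG (per kb within a library, SD, n = 3). HG and HG-SIG ratios overlapped and lay below all NC ratios. Cry1 over Cry2 was 2.54 ± 0.150, 2.43 ± 0.207 and 2.66 ± 0.258 in the same order, with overlap between the groups. Per1 over Per2 was 7.48 ± 0.679 for NC, 6.53 ± 0.518 for HG and 8.68 ± 0.449 for HG-SIG, where the HG-SIG libraries lay above both other groups. These ratios were not tested.

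Other genes of the pathway were read from 7 lists with 56 genes, of which 52 were in the table and 49 were tested. Called were 20 of 49 in HG against NC (10 higher, 10 lower; 40.8%), 31 in HG-SIG against HG (14 higher, 17 lower; 63.3%) and 28 in HG-SIG against NC (13 higher, 15 lower; 57.1%). Of all genes 29.5%, 52.5% and 58.6% were called in the same order, so the third share was at the background. For the counts by list below, 14.3% of all genes were higher and 15.2% lower in HG against NC. In HG-SIG against HG these shares were 25.7% and 26.8%. By library size alone the split was 22 higher and 10 lower in HG-SIG against HG and 29 and 12 in HG-SIG against NC. The medians over the 49 genes, 0.02, -0.03 and 0.03, were near those of all genes (0.00, 0.01 and 0.02).

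Among 5 tested genes of the core loop and its output factors, 1 rose and 1 fell in HG against NC, and 0 rose and 3 fell in HG-SIG against HG (median log2 fold change 0.20 and -0.36). Tef, a D-box activator of the same family as Dbp, averaged 25.7 ± 1.08 CPM for NC, 32.9 ± 1.34 CPM for HG and 25.6 ± 0.209 CPM with sitagliptin (SD, n = 3). It rose by 0.36 in HG against NC (adjusted p = 1.6e-04) and fell by 0.36 in HG-SIG against HG (adjusted p = 6.8e-05), the directions seen in Dbp. The fall was -0.20 by library size alone and -0.14 with limma, called in both. Ciart, an inhibitor of the CLOCK and ARNTL dimer, went from 12.0 ± 1.34 to 9.11 ± 1.26 and 4.18 ± 0.674 CPM, with log2 fold changes of -0.40 (adjusted p = 0.0271) and -1.12 (adjusted p = 2.6e-05). The first of these was not called without NC replicate 1 (-0.32, adjusted p = 0.123), NC replicate 3 (-0.40, adjusted p = 0.0698) or HG replicate 2 (-0.29, adjusted p = 0.111), nor with limma on log2(TPM + 1) (-0.34, adjusted p = 0.0919).

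Bhlhe41, the DEC2 paralogue of Bhlhe40, was at 5.70 ± 1.00 CPM in NC and 6.59 ± 0.933 in HG, which overlapped (0.20, adjusted p = 0.308), and at 3.17 ± 0.275 in HG-SIG, where it fell (-1.06 against HG, adjusted p = 6.7e-05). In the same 2 comparisons Per3, a paralogue of Per1 and Per2, had log2 fold changes of 0.34 (adjusted p = 0.133) and -0.36 (adjusted p = 0.0697) and Nfil3, a D-box repressor, 0.08 (adjusted p = 0.594) and -0.05 (adjusted p = 0.711), none of them called. Rora, a nuclear receptor gene whose protein activates Arntl through sites that contain AGGTCA, was near the detection limit. It summed to 14, 5 and 33 counts in NC, HG and HG-SIG, was not tested, and had a ratio of HG-SIG to HG of 5.27 (exact 95% counting interval 2.04 to 17.3). This interval covers counting error only. Hlf and Fbxl21 were also too low to be tested.

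Of 11 kinases, ubiquitin ligases and the deubiquitinase that act on clock proteins, 2 rose and 1 fell in HG against NC, and 5 rose and 3 fell in HG-SIG against HG. Usp2, whose deubiquitinase acts on PER, CRY and ARNTL proteins and whose transcript is itself clock-controlled, averaged 21.3 ± 1.28 CPM for NC and 31.0 ± 1.37 CPM for HG, against 12.1 ± 0.756 CPM with sitagliptin. Its log2 fold change was 0.54 in HG against NC (adjusted p = 3.3e-05) and -1.35 in HG-SIG against HG (adjusted p = 5.7e-09), and the HG-SIG libraries lay below NC as well (-0.81, adjusted p = 5.0e-07). Cipc, whose protein binds CLOCK, rose by 0.16 in HG against NC (adjusted p = 0.00764) and fell by 0.19 in HG-SIG against HG (adjusted p = 0.00104), but the fall was -0.03 by library size alone (adjusted p = 0.537) and 0.01 with limma. Gsk3b, a kinase of several clock proteins, rose by 0.32 in HG-SIG against HG (adjusted p = 1.6e-05). Prkaa1, the AMP-activated kinase subunit that acts on CRY1, fell by 0.12 in HG against NC (adjusted p = 0.0258) and rose by 0.15 in HG-SIG against HG (adjusted p = 0.00379), and the first was not called by library size alone (-0.09, adjusted p = 0.076), without a filter (adjusted p = 0.0616) or with limma (adjusted p = 0.128). Nor was it called without NC replicate 1 (adjusted p = 0.108), NC replicate 3 (0.0797), HG replicate 1 (0.0561) or HG replicate 2 (0.0517). The second was 0.32 by library size alone.

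Chromatin partners and corepressors had small changes: 3 of 10 rose and 0 fell in HG against NC, and 4 rose and 2 fell in HG-SIG against HG (medians 0.08 and 0.07). The 3 and 6 of 10 called were near the shares of all genes called, 29.5% and 52.5%. Sirt1, the deacetylase that acts on ARNTL and PER2, rose by 0.29 in HG (adjusted p = 5.8e-04) and was not called between HG-SIG and HG (0.05, adjusted p = 0.404). Ncor1, the corepressor that REV-ERB recruits, rose by 0.18 in HG-SIG against HG (adjusted p = 0.00446), or by 0.34 by library size alone. Nono and Sfpq, which act with PER proteins, fell by 0.19 (adjusted p = 0.00178) and 0.12 (adjusted p = 0.0217) on the log2 scale there, but by library size alone the values were -0.03 and 0.04. Sfpq was also not called without HG replicate 2 (adjusted p = 0.0763), HG replicate 3 (0.052) or HG-SIG replicate 3 (0.0925).

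Among 7 tested signalling inputs to the Per promoters, 2 rose and 0 fell in HG against NC, and 4 rose and 1 fell in HG-SIG against HG. Crtc3, a coactivator of CREB, went from 13.7 ± 0.776 CPM in HG to 20.5 ± 0.702 in HG-SIG (0.59, adjusted p = 6.0e-06). Sik1, the kinase that restrains these coactivators, fell by 0.47 in the same comparison (adjusted p = 0.00415), or by 0.31 by library size alone and 0.19 with limma. Nr3c1, the glucocorticoid receptor that acts on Per1, rose by 0.18 in HG against NC (adjusted p = 0.00922), and of 4 other glucocorticoid receptor targets 1 rose and 0 fell in each comparison. It was Tsc22d3 in HG against NC (0.57, adjusted p = 0.00557) and Sgk1 in HG-SIG against HG (0.47, adjusted p = 0.00793).

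Of 6 clock-controlled genes outside the loop, 1 rose and 3 fell in HG against NC, and 0 rose and 5 fell in HG-SIG against HG. The shares of all genes that were lower there were 15.2% and 26.8%. Por, the electron donor of cytochrome P450 enzymes, went from 190 ± 10.8 to 125 ± 7.73 and 82.2 ± 2.33 CPM (-0.60, adjusted p = 1.9e-06, and -0.61, adjusted p = 1.1e-06). Nampt, the rate-limiting enzyme of the NAD salvage pathway, fell by 0.25 in HG against NC (adjusted p = 2.3e-04), and Noct, a NADP phosphatase gene with a strong rhythm in many tissues, by 0.35 (adjusted p = 1.1e-04). Wee1, a mitotic kinase gene with E-boxes, rose by 0.24 in HG against NC (adjusted p = 0.00122) and fell by 0.30 in HG-SIG against HG (adjusted p = 1.1e-04). That fall was -0.14 by library size alone (adjusted p = 0.0166) and was not called with limma (-0.09, adjusted p = 0.113). Klf10 was at 75.9 ± 5.45 and 76.0 ± 1.95 CPM in NC and HG and fell to 48.5 ± 2.41 CPM in HG-SIG (-0.65, adjusted p = 8.5e-07). The fall of Noct in HG-SIG against HG (-0.18, adjusted p = 0.00759) was -0.02 by library size alone and turned to 0.02 with limma.

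Genes known to be repressed by REV-ERB in macrophages, several of which are also targets of NF-kB, were lower: 0 of 6 rose and 5 fell in HG against NC, 0 rose and 3 fell in HG-SIG against HG, and 6 fell in HG-SIG against NC (medians -0.53 and -1.90 in the latter 2). Of all genes 15.2%, 26.8% and 28.7% were lower in these comparisons. The macrophage markers fell beside them, 5, 9 and 8 of 9, and their part in these values was not tested. The chemokine gene Ccl2 fell by 0.99 in HG against NC (adjusted p = 4.2e-04). Its fall in HG-SIG against HG (-0.55, adjusted p = 0.0194) was not called by library size alone (-0.39, adjusted p = 0.0719), with limma (-0.34, adjusted p = 0.0874), or without HG replicate 2 (-0.51, adjusted p = 0.0602) or HG-SIG replicate 3 (-0.36, adjusted p = 0.0749). Nlrp3, the inflammasome sensor gene, went from 142 ± 1.98 to 71.1 ± 5.30 and 49.8 ± 2.52 CPM. The fractalkine receptor gene Cx3cr1 was at 368 ± 16.3 CPM in NC and 378 ± 22.3 in HG, which overlapped (0.04, adjusted p = 0.688), and at 76.9 ± 7.40 in HG-SIG (-2.30, adjusted p = 6.3e-11). The protease gene Mmp9 summed to 178, 20 and 13 counts and the cytokine gene Il1b to 52, 2 and 6, so ratios of HG to NC were 0.123 (exact 95% counting interval 0.0734 to 0.196) and 0.0421 (0.00497 to 0.160). Beside these, Nr1d1 fell and Nr1d2 rose in HG, as given above.

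**Figure D4:**
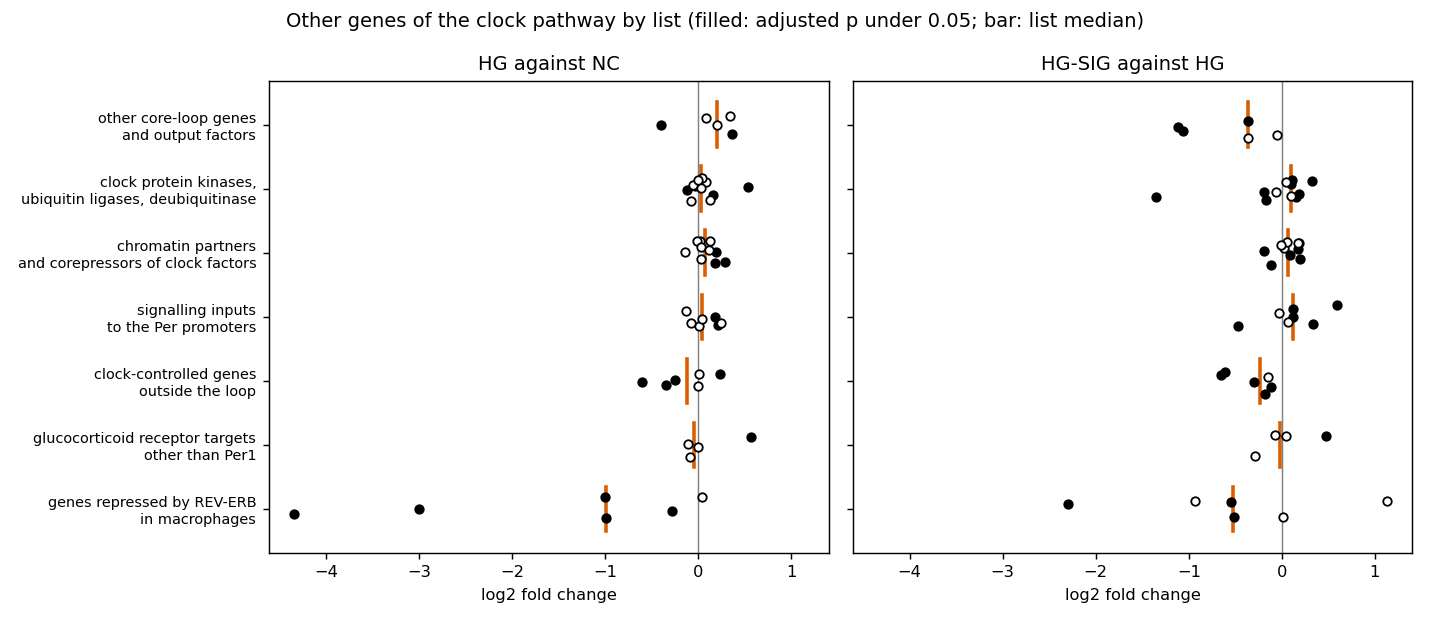
Log2 fold change of the tested genes in the 7 other clock pathway lists (rows) between HG and NC and between HG-SIG and HG (panels), filled where the adjusted p was under 0.05, with a bar at the list median. The genes repressed by REV-ERB have the lowest median between HG and NC, with Il1b at -4.34 and Mmp9 at -3.00, both with few counts in HG. The median of the core-loop and output genes goes from 0.20 in the first panel to -0.36 in the second.

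The genes most like 2 of the members were found by Pearson correlation of log2 CPM over the 9 libraries, among 9657 genes outside the lists with a symbol and an average log2 CPM of 2 or more. The points share the 3 groups and the depth and scaling of their libraries, and r passed 0.9 for 872 candidates (9.03%) with Bhlhe40 and 196 (2.03%) with Dbp. For Bhlhe40, the member with the largest change in HG against NC, they were Tfcp2l1 (r = 0.998), the lactate exporter gene Slc16a3 (0.995), the potassium-chloride cotransporter gene Slc12a4 (0.994), Flrt2 (0.994) and the collagen lysyl hydroxylase gene Plod1 (0.993). Tfcp2l1 went from 11.3 ± 0.653 to 4.40 ± 0.551 and 2.17 ± 0.375 CPM (SD, n = 3). For Dbp, which had the largest change in HG-SIG against HG, they were Fam185a (0.979), Fam13c (0.974), the polysialyltransferase gene St8sia4 (0.974), the replicative helicase subunit gene Mcm7 (0.974) and Ipo11 (0.973). Fam13c averaged 43.8 ± 1.74 CPM for NC and 92.1 ± 10.5 CPM for HG, against 41.7 ± 0.942 CPM with sitagliptin.

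**Figure D5:**
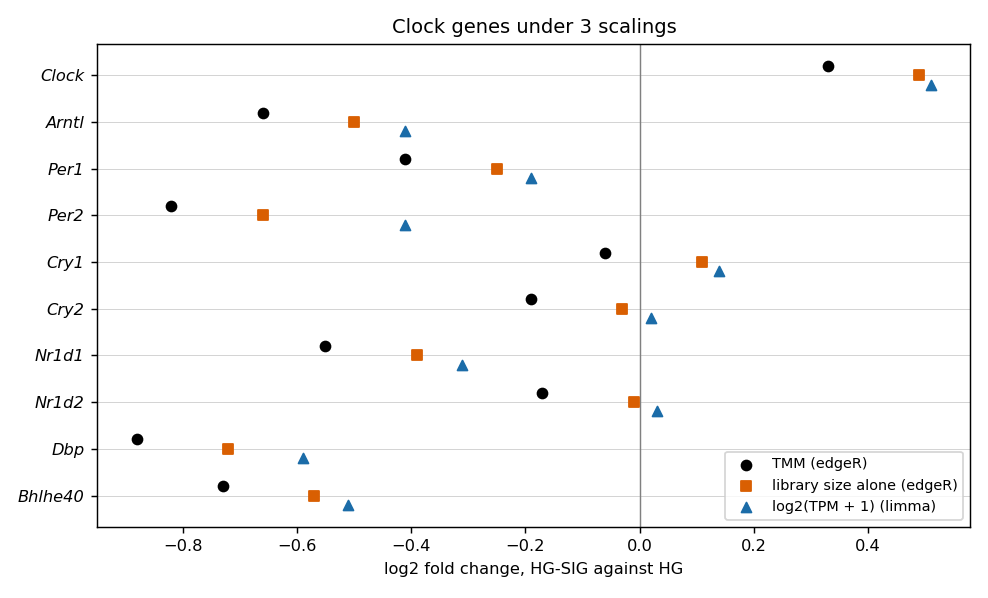
Log2 fold change of the 10 clock genes in HG-SIG against HG with TMM scaling in edgeR (circles), library size alone in edgeR (squares) and limma on log2(TPM + 1) (triangles). Cry1, Cry2 and Nr1d2, at -0.06, -0.19 and -0.17 with TMM, lie near or right of 0 under the other scalings, and the other 7 members keep their side of 0.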

How the data were processed

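Polyadenylated RNA of 9 RAW264.7 libraries was measured. The authors deposited whole-number counts per gene for each library. Bowtie2 2.3.5, RSEM and mm10 were used per the submitters' processing notes, so estimated counts may have been rounded before deposit. Annotation release and use of strand are not given in the sources used. GENCODE M21 supplied coordinates and exon lengths, and RefSeq the promoters. The table held 1996 unannotated loci, with 5.85% to 6.21% of a library's counts, which stayed in the tests.

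Groups and replicate numbers came from the titles, glucose and time from the series' design text. Counts were filtered with filterByExpr, scaled with TMM and fitted in edgeR 4.0.16 (R 4.3.3) as 1 model of 9 libraries with a mean per group. Each of the 3 contrasts had a quasi-likelihood F-test, adjusted by Benjamini-Hochberg over 13311 genes. The standard error of a log2 fold change was its size over the square root of F. Alternatives were other scalings and filters, DESeq2 1.42.0, limma 3.58.1 on log2(TPM + 1), a replicate block, only the 2 groups compared, leaving out each library, and a log2 change above 1 in size, the criterion the series states.

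Members and lists were chosen with earlier results of these data known. All 10 members are named, with up to 4 called genes per list and comparison by p-value, not all of which are described, and the 5 genes most like the leading member of HG against NC and of HG-SIG against HG. Per3, Nfil3, Rora and other genes without a call were named after their values were seen. A listed gene is not reported here and was left out of the list counts. Exact counting intervals and floors of 3 counts cover counting error only. On simulated counts of 13160 genes with 200 changed, the HG against NC test found 77.0% of the genes with a log2 change of 0.5 in size and 100% of those with 1, and 13 of its 190 calls were false. In a simulated HG-SIG against HG comparison without change it made 0 calls. The changed genes were chosen above a minimum mean count, with equally many higher and lower, and no scaling difference between groups was simulated. Far more genes were called in the data, so these rates do not give the error or recovery there.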

Additional observations from a re-analysis of the deposited data

How the results depend on the processing

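Of the 30 member values (10 genes in 3 comparisons), 23 kept their direction where called and their side of the threshold under all 17 settings tried. The exceptions were Clock and Nr1d1 in HG against NC, Cry1, Cry2 and Nr1d2 in HG-SIG against HG, and Cry1 and Cry2 in HG-SIG against NC. Reversed with limma on log2(TPM + 1) in HG-SIG against HG were Cry1 (0.14), Cry2 (0.02), Nr1d2 (0.03), Cipc (0.01), Nono (0.02), Sfpq (0.09) and Noct (0.02), and in HG-SIG against NC Cry1 (0.07) and Cry2 (0.01). By library size alone, Sfpq in HG-SIG against HG (0.04) and Cry1 in HG-SIG against NC (0.03) reversed. Only values called in the main fit or in that setting were counted as reversed. Uncalled values that turned by library size alone, as given above, include Cry1 in HG-SIG against HG, Dbp in HG-SIG against NC and Per1 in HG against NC. Cry1 in HG-SIG against NC also lost its call with DESeq2 (adjusted p = 0.0669) and, in edgeR, without a filter (adjusted p = 0.0715). In edgeR it was lost, too, without each of 6 libraries in turn, the weakest being without HG-SIG replicate 3 (-0.12, adjusted p = 0.172). The cause was not tested. Requiring a log2 change above 1 in size left, for HG against NC, then HG-SIG against HG, then HG-SIG against NC, 0, 0 and 1 members, 3, 4 and 7 other pathway genes and 379, 706 and 1133 of all genes. Leaving out each library gave 4 to 5, 8 to 9 and 8 to 9 members called, 16 to 20, 22 to 32 and 24 to 28 other pathway genes, and 3062 to 4000, 6193 to 7147 and 7106 to 8191 of all genes. Correlations of same-numbered deviations between groups were weak, from 0.00 to 0.10 in 9 pairs. Those of different numbers ran from -0.08 to 0.04. A weak pairing of the libraries by replicate number was not tested, and the main fit used none. With the replicate block 5, 9 and 9 members, 22, 34 and 30 other pathway genes and 4663, 7563 and 8282 of all genes were called. Depth limited Rora, Il1b and Mmp9, whose group sums were at or below 33 counts in at least 1 group.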
